A study of Mus musculus with 8 samples.

Results

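Amino acid transporters of the Slc1, Slc3, Slc7, Slc36, Slc38 and Slc43 families were examined in CD11b+ cells of the neonatal mouse brain after saline or lipopolysaccharide (LPS, the endotoxin of Gram-negative bacteria). Members were chosen by name: every probe of the array design whose gene name carries one of these family names, apart from Slc1a2, Slc1a3, Slc7a2 and Slc7a11, which were left out. This gave 75 probes of 56599 usable ones, and 41 genes of 36589. Of the 41 genes, 38 are carriers or their heavy chains. The other 3 only carry a transporter name: Slc36a1os and Slc36a3os are long noncoding RNAs in RefSeq, and Slc7a6os is a protein-coding gene next to Slc7a6.

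The samples were 4 tubes of cells from mice injected with saline and 4 tubes from mice treated with LPS, both taken at 24 h. All mice were males of the strain C57BL/6N aged 7 days, with no other genotype or agent named. Each tube pooled 2 brains of 2 mice of the same treatment, and CD11b+ cells were taken from it by magnetic sorting, so that 1 array is 1 pool and not 1 animal. From each pool 50 ng of RNA was labelled with Cy3 and hybridised to a 1-colour Agilent array. CD11b, encoded by Itgam, marks microglia but also monocytes, macrophages and neutrophils, and all 12 microglial markers examined, Itgam included, were above background on all arrays.

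Amino acid carriers set which building blocks a cell can take up, exchange or release. Slc1 holds sodium-driven carriers of glutamate and exchangers of small neutral amino acids. Light chains of Slc7 are held in the membrane by a heavy chain of Slc3, and the cationic carriers of Slc7 bring in arginine and lysine without one. Slc38 carriers move glutamine and other neutral amino acids with sodium, Slc36 holds carriers that use protons, though not in every member, and Slc43 members are facilitators that need no ion gradient. In microglia and macrophages such carriers feed protein synthesis, glutathione, nitric oxide and the lysosomal nutrient sensor mTORC1.

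Levels below are log2 of the processed signal minus the 75th percentile of the same array, so that 0 is the 75th percentile of all probes and a difference of 1 is 2-fold. Because each probe has its own brightness, levels are compared between arrays and not between genes. A gene is called changed where its adjusted p in limma's moderated test was under 0.05 over all 22509 genes tested, and errors of a change are standard errors. Between 61.9% and 66.0% of the probes stood well above background after saline, and between 58.6% and 63.2% after LPS. The median signal was 15.5 to 21.5 and 11.7 to 17.3, and no spot was saturated. LPS replicate 3 lay apart from the other LPS arrays: among the 11104 changed genes it was the LPS array nearest to the saline mean in 78.5%.

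The array reads each gene through 60-base probes, and in some members the letters of the probe may bear on the result. Stretches of 30 bases of the probes of Slc1a4, Slc3a2 and Slc38a9 are shown because they hold runs of at least 20 bases that probes or promoters of other genes share; capitals mark the shared letters, 5′ to 3′ on the sense strand.
Slc1a4: atgtatcaAGTGTGTGTGTGTATGTGTGTG
Slc3a2: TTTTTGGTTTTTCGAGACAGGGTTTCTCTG
Slc38a9: tctcTGTGAGTTCCAGGACAGCCAAAGCTa
The counts that follow are of genes, over the whole probe, with matches on either strand included. The Slc1a4 probe, with its GT-rich run, shares a run with probes of 6 other genes and with promoter windows of 11 other genes. For the Slc3a2 probe, which is not the one used for its gene value, these counts are 11 and 50. For the Slc38a9 probe they are 1 and 2. The single probe of Slc1a4 and the brightest probe of Slc38a9 are the ones behind their gene values below. How much signal of other transcripts these probes collect was not tested.

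After LPS the carriers Slc1a5, Slc43a3, Slc7a1, Slc1a4 and Slc7a6 were among the genes that rose, and Slc38a11, Slc1a6 and Slc38a3 among those that fell. Of the 34 members bright enough to test, 9 rose, 7 fell and 18 did not pass, so that 47.1% were called against 49.3% of all genes tested. By direction, 27.8% of all genes rose and 21.5% fell. The members' share of calls is therefore near the background. Their median log2 change was 0.02, and that of all genes tested was 0.02. A change of at least 2-fold was called in 5 of the 34, or 14.7%, against 9.33% of all genes. One of these 5, Slc36a3os, was not above background after saline and was kept only through the LPS arrays, so that its direction was fixed. Its rise is only bounded, at 1.82-fold or more, and its place in these counts supports nothing. The groups did not overlap in 17 of the 34, or 50.0%, against 44.7% of all genes. These 17 are the called members other than Slc7a10, with Slc38a1 and Slc7a6os.

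The split between higher and lower moved with the scaling of the arrays. The counts over all genes moved too, from 6267 higher and 4837 lower of 22509. With each array scaled to its median, which put the median change of all genes at 0.24 instead of 0.02, 9 members rose and 4 fell. Over all genes 6994 rose and 2619 fell. With scaling over probes above background on all arrays, which put that median at -0.13, 6 members rose and 12 fell, and over all genes 4850 and 7243. Quantile normalization gave 6 and 11, and 5682 and 5598 over all genes. Across these 3 scalings every one of the 16 called members kept its direction except Slc3a2. Scaling to the median put Slc3a2 at 0.42, Slc7a7 at 0.55 and Slc38a7 at 0.47, and quantile normalization put Slc38a9 at -0.86.

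**Figure D1:**
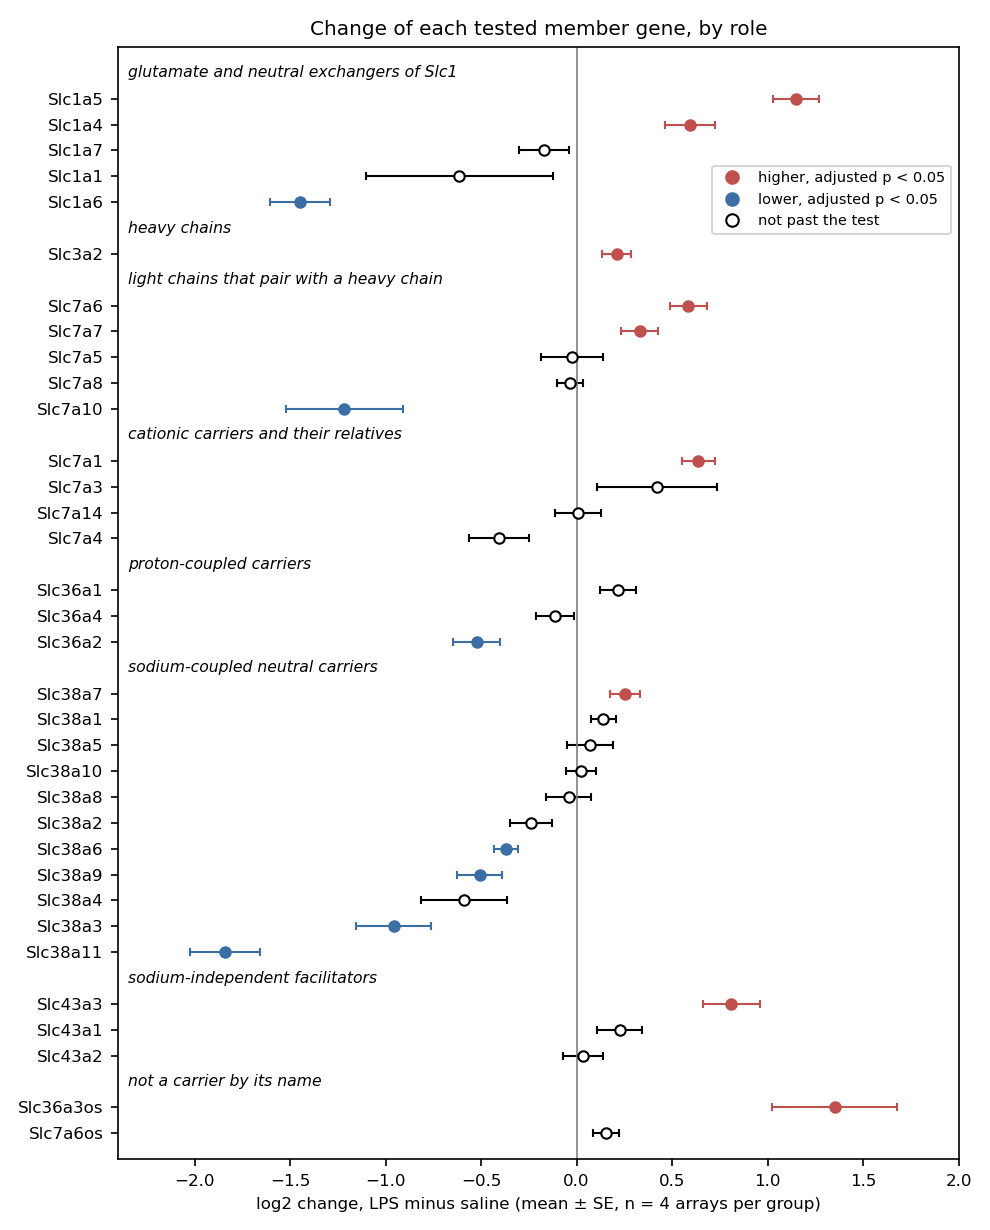
Log2 change between LPS and saline (x axis, mean with SE as the bar, n = 4 arrays per group) for the 34 tested member genes, grouped by role and sorted within each role. Filled red and blue points passed the test as higher (9 genes) and lower (7 genes), open points did not. Slc1a5 has the largest rise among the carriers and Slc38a11 the largest fall; for the noncoding Slc36a3os the saline level is only a bound.

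In the Slc1 family, with Slc1a2 and Slc1a3 left out, 5 of 5 members were tested, of which 2 rose and 1 fell. Slc1a5, the sodium-dependent exchanger through which many cells take up glutamine, rose most among the carriers. Its level was 0.07, 0.10, 0.07 and -0.09 on the saline arrays and 1.30, 1.22, 0.85 and 1.38 on the LPS arrays. The lowest LPS array stood well above the highest saline array, and LPS replicate 3 was the lowest of its group. The change was 1.15 ± 0.12 on the log2 scale, or 2.22-fold (adjusted p = 0.000597). Its probe lies on chromosome 7, at chr7:17383359-17383418 of mm9, plus strand.

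Slc1a4 is the closest relative of Slc1a5 and exchanges alanine, serine and cysteine. Levels were 2.52, 2.43, 2.17 and 2.42 after saline against 2.87, 2.91, 2.81 and 3.32 after LPS. The groups did not overlap, and LPS replicate 4 was the highest array by a margin. The change was 0.59 ± 0.13 (adjusted p = 0.00716), read by the single probe with the shared GT-rich run. In a fit with array brightness (the median signal) as a covariate it was 0.47 with an adjusted p of 0.0701. The median signal was itself mostly lower after LPS.

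The glutamate carriers examined here, Slc1a1, Slc1a6 and Slc1a7, did not rise, and Slc1a2 and Slc1a3 were not among the members. Slc1a6, known as the glutamate carrier of cerebellar Purkinje cells, gave -2.71, -2.97, -2.51 and -2.43 on the saline arrays. On the LPS arrays it gave -4.36, -4.24, -3.84 and -3.98, a fall of all 4 arrays below every saline array. The change was -1.45 ± 0.16 (adjusted p = 0.000623). With a background correction that adds an offset of 50, which compresses dim probes, it was -0.25 and still called. Slc1a1, the neuronal carrier of glutamate and cysteine, changed by -0.61 ± 0.49 and did not pass, with all saline arrays but only 2 LPS arrays above background. Slc1a7, the retinal glutamate carrier, changed by -0.17 ± 0.13 and did not pass either.

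The heavy chain Slc3a2 passed the test and its main light chain Slc7a5 did not; the difference between them was not tested. Slc3a2, the heavy chain of CD98, was at 6.18, 6.19, 6.06 and 6.14 after saline and at 6.44, 6.31, 6.23 and 6.42 after LPS. The groups were apart by a small margin, and the change of 0.21 ± 0.08 barely passed (adjusted p = 0.0476). It was not called in 12 of the 23 alternative settings, 7 of which left out 1 array, and quantile normalization turned it to -0.15. Slc7a5, the carrier of leucine and other large neutral amino acids, gave -1.14, -0.99, -0.58 and -1.07 after saline. After LPS it gave -1.22, -1.16, -0.77 and -0.73. The values interleave, and the change was -0.02 ± 0.16 (adjusted p = 0.913), read by 1 probe that starts at base 533 of the transcript. Slc3a1, the heavy chain of kidney and gut, was not above background on any array.

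Slc7a6 and Slc7a7 rose, the light chains that release arginine and lysine in exchange for neutral amino acids and sodium. For Slc7a6 the saline levels were 0.54, 0.44, 0.58 and 0.56 and the LPS levels 1.25, 1.12, 0.87 and 1.21. Again LPS replicate 3 was the lowest of its group and still above all saline arrays. The change was 0.58 ± 0.10 (adjusted p = 0.00223), and the second probe of the gene gave 0.55. Slc7a7, whose loss causes lysinuric protein intolerance and which is abundant in macrophages, went from 4.85, 4.81, 4.63 and 4.71 to 5.16, 5.07, 4.87 and 5.22. Only a narrow gap separated saline replicate 1 from LPS replicate 3. The change was 0.33 ± 0.10 (adjusted p = 0.0226). It was 0.02 after quantile normalization, and the call ended in 8 of 23 settings, among them the removal of saline replicate 3 or 4 or of LPS replicate 1, 2 or 4.

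Slc7a8, which like Slc7a5 carries large neutral amino acids, changed by -0.04 ± 0.07 and did not pass. On chromosome 14 its probe lies 352 kb from that of Slc7a7. Slc7a10, a carrier of glycine and D-serine known from astrocytes and neurons, is described here after its values were seen, because it was called with overlapping groups. It gave -0.06, 0.53, 0.89 and 0.80 after saline and -1.28, -0.96, -0.01 and -0.45 after LPS. LPS replicate 3 lay above saline replicate 1. The change was -1.22 ± 0.31 (adjusted p = 0.0126), while its second probe, which shares a run with 1 other gene's probe, changed by -0.09. With array brightness as a covariate the change was -0.55 and not called (adjusted p = 0.111).

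The light chains Slc7a9, Slc7a12, Slc7a13 and Slc7a15 were too dim to test. Slc7a9, the cystine carrier of the kidney, was above background on 0 saline arrays and on 3 LPS arrays. Its levels were -6.89, -5.86, -5.61 and -5.24 after saline and -5.64, -4.87, -4.95 and -4.85 after LPS. The LPS arrays therefore overlap the saline arrays, and the bound is at least 1.18-fold higher after LPS. The gene was picked for being above background in 1 group only, so that the direction was fixed by the choice and supports nothing. Its second probe was above background on no array. A bound sets the bright group's mean against the higher of the probe's own signal and the lowest signal well above background on each dim array. Slc7a15 was above background on no array, and Slc7a12 and Slc7a13 each on 1 saline array.

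Among the 4 cationic carriers and their relatives, Slc7a1 rose and the other 3 did not pass. Slc7a1, the widely expressed importer of arginine and lysine, was at 3.41, 3.21, 3.40 and 3.38 after saline. After LPS it was at 4.12, 3.93, 3.86 and 4.03, with every LPS array above every saline array. The change was 0.64 ± 0.09 (adjusted p = 0.00111). It remained called in all 23 settings, with a smallest value of 0.40 after quantile normalization. Slc7a3, its relative known from neurons, changed by 0.42 ± 0.31, and Slc7a4, a family member without an established substrate, by -0.41 ± 0.16. Slc7a14, a lysosomal family member of neurons, is taken up with its probes below.

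**Figure D2:**
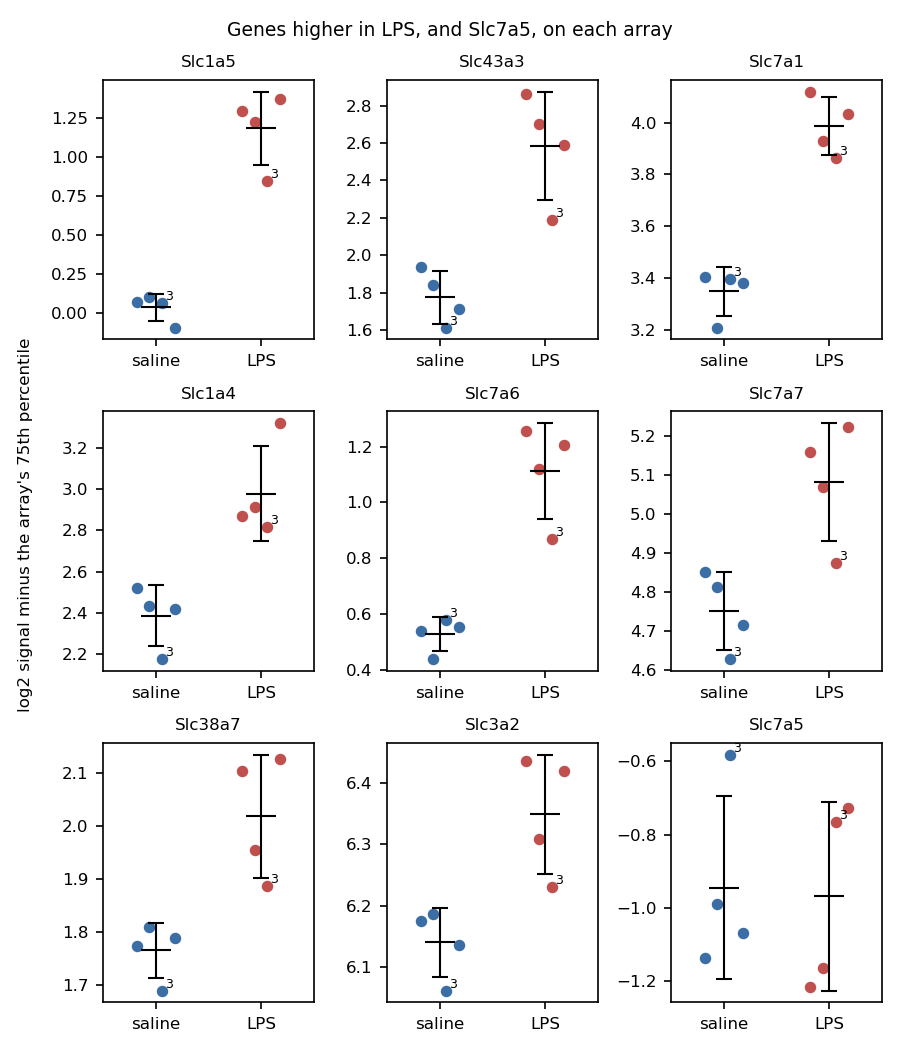
Level on each array (y axis, log2 signal minus the 75th percentile of the array) after saline (blue) and LPS (red) for the 8 carriers and heavy chains that rose and for Slc7a5. Each point is 1 array, the bar is the mean with SD, and replicate 3 of each group is marked. In the 8 genes that rose the groups do not overlap, and LPS replicate 3 is the lowest LPS array; in Slc7a5 the groups interleave.

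Of the 11 sodium-coupled neutral carriers, all tested, 4 fell, 1 rose and 6 did not pass. Under the 3 other scalings 2, 6 and 6 fell and 1, 0 and 0 rose. Over all genes 2619, 7243 and 5598 then fell and 6994, 4850 and 5682 rose. Slc38a11, a carrier whose substrates are little known, had the largest fall of all members. Its level was -2.18, -2.22, -2.03 and -2.03 after saline and -4.25, -3.97, -3.39 and -4.20 after LPS. All LPS arrays lay below all saline arrays, and LPS replicate 3 was the highest of its group. The change was -1.84 ± 0.18, or 3.58-fold lower (adjusted p = 0.000485), from the 1 kept probe of 4 at chr2:65154690-65154749 of mm9, minus strand. With the offset of 50 it was -0.42 and still called.

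Slc38a3, through which astrocytes take up and release glutamine, fell as well. It gave 0.10, 0.12, 0.67 and 0.45 on the saline arrays and -1.003, -0.72, -0.19 and -0.57 on the LPS arrays. The groups did not overlap, and replicate 3 was the highest array in both. The change was -0.96 ± 0.20 (adjusted p = 0.00514), and -0.49 with array brightness as a covariate, still called. Slc38a6, an orphan member of the family, moved less but evenly, from 2.81, 2.80, 2.70 and 2.80 to 2.34, 2.40, 2.45 and 2.43. Its change was -0.37 ± 0.06 (adjusted p = 0.0028), and all 4 of its kept probes fell. Scaled to the median of each array, its change was -0.16 with an adjusted p of 0.356.

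Slc38a9 is a lysosomal carrier that reports arginine to mTORC1. Its brightest probe gave 5.46, 5.70, 5.86 and 5.72 after saline and 4.94, 5.34, 5.25 and 5.18 after LPS, with no overlap. The change was -0.51 ± 0.12 (adjusted p = 0.0082). That probe was made to an Ensembl transcript and holds the shared run printed above. The probe made to the RefSeq transcript gave 1.61, 1.63, 1.62 and 1.60 after saline and 1.73, 1.71, 1.46 and 1.62 after LPS. There the groups overlap, and the change was 0.02 ± 0.08 and not called (adjusted p = 0.877 over all probes). The fall of Slc38a9 therefore rests on 1 of its 2 kept probes, and it was also not called with scaling to the median (-0.29) or with array brightness as a covariate (-0.34).

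One member of the family rose: Slc38a7, a carrier that exports glutamine from lysosomes. Levels were 1.77, 1.81, 1.69 and 1.79 after saline and 2.10, 1.96, 1.89 and 2.13 after LPS. The change was 0.25 ± 0.08 (adjusted p = 0.0291), with all LPS arrays above all saline arrays. It was not called in 10 of the 23 settings, 6 of which left out 1 array (any but saline replicate 2 and LPS replicate 3). The glutamine carriers that many cells use for uptake did not pass: Slc38a1 changed by 0.14 ± 0.07, Slc38a2, which is induced by amino acid shortage, by -0.24 ± 0.11, and Slc38a5 by 0.07 ± 0.12. Slc38a4 changed by -0.59 ± 0.22 (adjusted p = 0.058), with only 2 LPS arrays but 4 saline arrays above background. Slc38a8 changed by -0.04 ± 0.12 and Slc38a10 by 0.02 ± 0.08.

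Among the Slc36 carriers, grouped here as proton-coupled, 3 of 4 were tested and Slc36a2 fell. It carries glycine, alanine and proline. The brightest probe gave -1.43, -1.70, -1.59 and -1.74 after saline and -2.13, -2.14, -1.89 and -2.41 after LPS. No LPS array reached the lowest saline array. Its change was -0.52 ± 0.12 (adjusted p = 0.00902), and the other 2 probes changed by -1.15 and -1.02, so that the brightest probe showed the smallest fall. On the brightest probe the call ended with scaling to the median (-0.31) and with array brightness as a covariate (-0.44), and with the offset of 50 it was -0.18 and called. Slc36a1, which releases amino acids from lysosomes, changed by 0.22 ± 0.09 and Slc36a4 by -0.11 ± 0.10, neither past the test. Slc36a3 was above background on no array.

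Slc36a3os, the noncoding RNA named after Slc36a3, was above background on 0 saline arrays and on all 4 LPS arrays. Its levels were -5.85, -5.57, -6.51 and -5.21 after saline and -4.41, -4.32, -5.11 and -3.90 after LPS. The lowest LPS array was above the highest saline array. As the saline level is only a bound, the RNA was at least 1.82-fold higher after LPS. The fit gave 1.35 ± 0.33 (adjusted p = 0.0103), but the probe passed the filter on dim probes only through the LPS arrays. Its direction was thereby fixed, and its place among the 9 members that rose supports nothing; the other 8 are carriers or heavy chains. With the offset of 50 the change was 0.21 and called, and with array brightness as a covariate it was 0.84 and not called. Its probe lies 31.0 kb from that of Slc36a2 on chromosome 11, which fell. Slc36a1os was not above background on any array.

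In the Slc43 family 1 of 3 members rose. Slc43a3, which carries purine bases rather than amino acids in the cells where it has been studied, was at 1.94, 1.84, 1.61 and 1.71 after saline. After LPS it was at 2.86, 2.70, 2.19 and 2.59, again with replicate 3 lowest. The change was 0.81 ± 0.15, or 1.75-fold (adjusted p = 0.00338), and both probes were called as higher. With array brightness as a covariate it was 0.48 and still called. Slc43a1 and Slc43a2, carriers of leucine and other large neutral amino acids, changed by 0.23 ± 0.12 and 0.04 ± 0.11 and did not pass. On chromosome 2 the probes of Slc43a1 and Slc43a3 lie 94.4 kb apart. Slc7a6os, whose probe lies 3.02 kb from that of Slc7a6, changed by 0.15 ± 0.07 and did not pass, while its other kept probe, to another transcript, changed by -0.57 ± 0.19 and was called as lower (adjusted p = 0.034 over all probes).

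**Figure D3:**
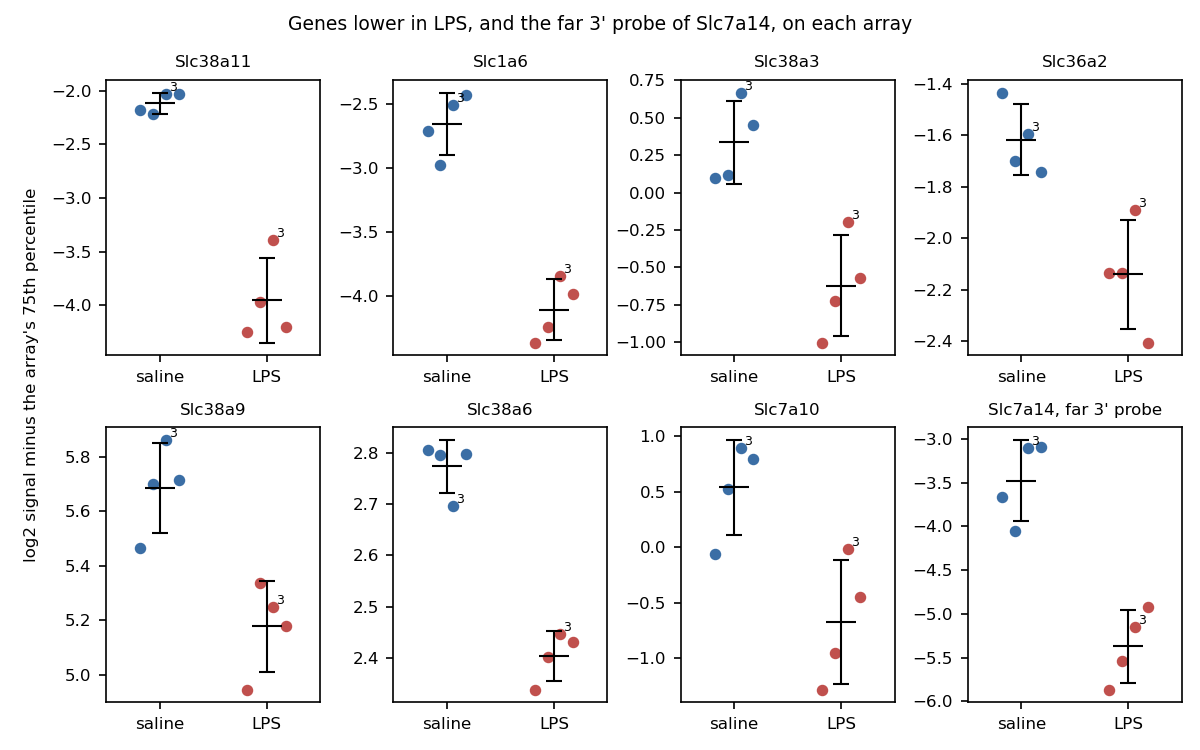
Level on each array (y axis, log2 signal minus the 75th percentile of the array) after saline (blue) and LPS (red) for the 6 named genes that fell, for Slc7a10 and for the far 3′ probe of Slc7a14. Each point is 1 array and the bar is the mean with SD; replicate 3 is marked. The groups overlap only in Slc7a10, where LPS replicate 3 at -0.01 lies above saline replicate 1 at -0.06.

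LPS replicate 3 was the LPS array nearest to the saline mean in 15 of the 16 called members. Without it 23 members were called, 12 higher and 11 lower. All 16 stayed called, and the 7 gained were Slc36a1, Slc43a1 and Slc7a6os among the higher and Slc1a1, Slc38a2, Slc38a4 and Slc7a4 among the lower. Over all genes the count was then 13262.

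Within single genes the probes often differed in size and sometimes in call. More than 1 probe was kept for 17 members. In 4 of them (Slc36a2, Slc38a6, Slc43a3 and Slc7a6) all probes were called the same way, in 5 none was called, and in 8 some were called and some not. No gene had probes called in both directions. In Slc7a14 the brighter probe, starting at base 1335 of the transcript, changed by 0.01 ± 0.12. The probe at base 8618 was called as lower, with a fitted change of -1.90. This far probe gave -3.66, -4.05, -3.10 and -3.09 after saline and -5.87, -5.54, -5.15 and -4.92 after LPS. It was above background on 4 saline arrays but on only 1 LPS array, so that it was kept mainly through the saline arrays and the size of its fall is not known exactly.

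Slc3a2 and Slc38a1 also had probes that parted. In Slc3a2 the brightest probe changed by 0.21, a second by 0.09, and the one whose run is printed above by 0.56, the only one called when p was adjusted over all probes. In Slc38a1 3 probes to the RefSeq transcript changed by 0.08 to 0.14 and were not called, while the probe to an Ensembl transcript changed by -0.49 and was called as lower. Slc38a2 showed the same arrangement, with -0.24 for the RefSeq probe and -0.47, called, for the Ensembl probe. Which transcripts each probe reads in these cells was not tested.

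**Figure D4:**
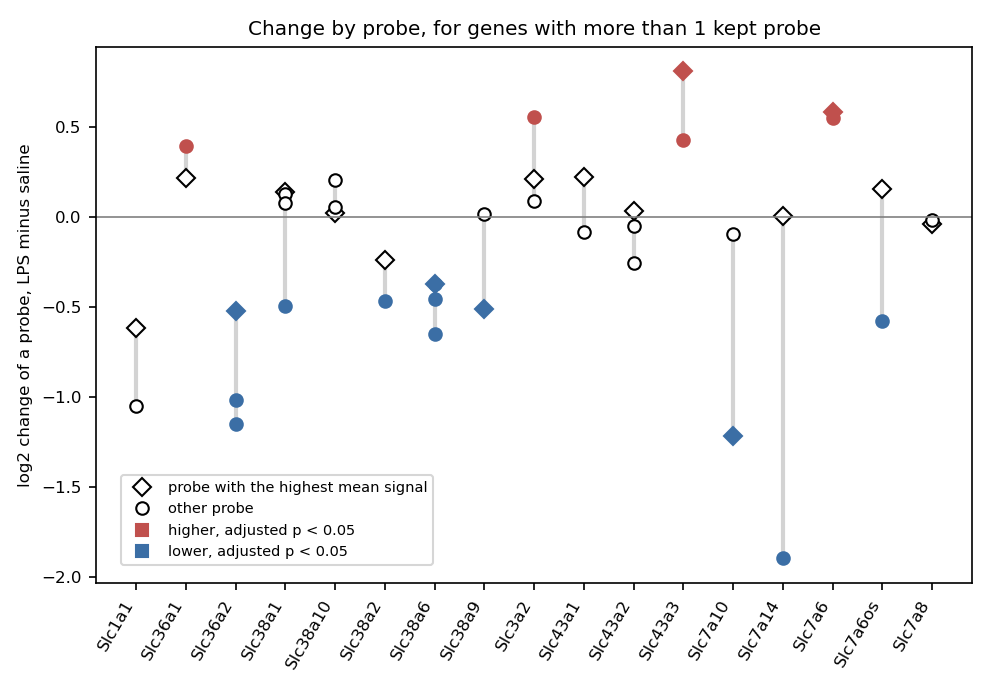
Log2 change of each kept probe (y axis) for the 17 members with more than 1 kept probe (x axis). Diamonds are the probe with the highest mean signal, which stands for the gene, circles are the others, and filled symbols passed the test over all probes. Slc7a14 runs from -1.90, a probe above background on only 1 LPS array, to 0.01, and no gene has filled symbols on both sides of 0.

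Some members that fell are known from other brain cells, among them Slc38a3, Slc7a10 and Slc1a6. Markers of other brain cells were read from the same fit, beside 21.5% of all genes lower. Of 11 astrocyte markers, all above background on all arrays, 10 fell and 0 rose, with a median change of -0.98. Their summed level, in multiples of the 75th percentile, was 28.6, 33.3, 35.3 and 32.4 on the saline arrays and 18.2, 15.8, 21.8 and 20.7 on the LPS arrays. Slc1a6 had its highest value on replicate 3 after LPS (-3.84) but on replicate 4 after saline (-2.43, against -2.51 on replicate 3). Slc38a3 and Slc7a10 had their highest value of each group on replicate 3. This is not particular to astrocytes. The summed markers of pericytes and fibroblasts, of neurons, and of choroid plexus and ependyma were also highest there in both groups. Replicate 3 was also the brightest array of each group, with a median signal of 21.5 after saline and 17.3 after LPS. In bulk samples, fewer cells of a type and less RNA per cell cannot be told apart.

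Markers of pericytes and fibroblasts fell in 9 of 10 cases, with summed levels of 44.6 to 68.4 after saline and 16.7 to 32.2 after LPS. Of 12 endothelial markers 7 fell and 1, Ly6c1, rose, which put their summed level at 36.3 to 47.5 and 49.6 to 68.6. Among 11 neuronal markers 2 fell, 1 rose and 8 did not pass. Their summed levels were 12.9 to 19.0 and 8.98 to 16.6, the highest LPS value being on replicate 3. Of 12 markers of the oligodendrocyte lineage 7 fell and 0 rose (summed 14.4 to 15.7 and 12.03 to 13.4). The part of any of these cells in the falls of the transporters was not tested.

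Beside the members that rose, monocyte markers rose in 7 of 8 cases (summed 33.5 to 47.0 after saline and 109 to 181 after LPS). All 8 markers of cycling cells rose (122 to 136 and 199.6 to 292). Of 11 neutrophil markers 3 rose, 0 fell and 8 did not pass, with a median change of -0.03, beside 27.8% of all genes higher. Their summed level (72.1 to 169 and 169.9 to 300.3) is carried mostly by the brightest markers, S100a8 and S100a9, which rose by 1.59 and 1.38. Microglial markers were split, with 3 of 12 higher and 5 lower (1829 to 2195 and 1929 to 2258). What share of the rises in transporters these cells carry was not tested.

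Genes of other amino acid pathways gave the setting, each list read from the same fit beside 27.8% of all genes higher, 21.5% lower and a median of 0.02. The amino acid response is the program that the kinase Eif2ak4 and the factor Atf4 switch on when amino acids run short. Of 24 tested genes of this list, which holds both regulators beside Atf4 targets, 13 rose and 4 fell, with a median change of 0.57. Asns, which makes asparagine, rose by 1.94 ± 0.12 (adjusted p = 9.92e-05) and Mthfd2, an enzyme of mitochondrial folate metabolism, by 1.87 ± 0.13 (adjusted p = 0.000139). Gdf15, a stress hormone, changed by -1.42 ± 0.17 (adjusted p = 0.000875) and Cth, which makes cysteine, by -1.26 ± 0.39 (adjusted p = 0.0285). Cth was above background on 4 saline arrays and 1 LPS array, so that its size is not known exactly. Atf4 itself changed by -0.15 ± 0.07 and Eif2ak4 by -0.11 ± 0.08, and neither passed.

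Amino acid carriers of other families had 5 higher and 7 lower of 24 tested, with a median of -0.23. Slc25a22, the mitochondrial glutamate carrier, rose by 0.93 ± 0.11 (adjusted p = 0.000851), and Slc16a10, a carrier of aromatic amino acids, by 0.91 ± 0.13 (adjusted p = 0.00132). Slc32a1, the vesicular carrier of GABA and glycine in inhibitory neurons, changed by -1.92 ± 0.31 (adjusted p = 0.00205). Slc15a2, a peptide carrier, changed by -1.30 ± 0.11 (adjusted p = 0.000286).

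In the lysosomal sensing of amino acids by mTORC1, 10 of 35 tested genes rose and 10 fell, with a median of 0.02. The Ragulator subunits Lamtor4 and Lamtor2 rose by 0.58 ± 0.13 and 0.57 ± 0.13 (adjusted p = 0.00861 and 0.00915). Rragd, a Rag GTPase, changed by -1.67 ± 0.44 and Fnip2, a partner of folliculin, by -1.09 ± 0.12 (adjusted p = 0.0142 and 0.000716). Of 21 genes of amino acid breakdown and interconversion 7 rose and 4 fell, with a median of 0.06. Got2, the mitochondrial aspartate aminotransferase, rose by 0.88 ± 0.15 and Shmt1, a serine hydroxymethyltransferase, by 0.83 ± 0.14 (adjusted p = 0.00222 and 0.00252). Gldc, of glycine cleavage, changed by -1.03 ± 0.25 and Cbs, which makes cystathionine, by -0.67 ± 0.15 (adjusted p = 0.00993 and 0.00669).

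**Figure D5:**
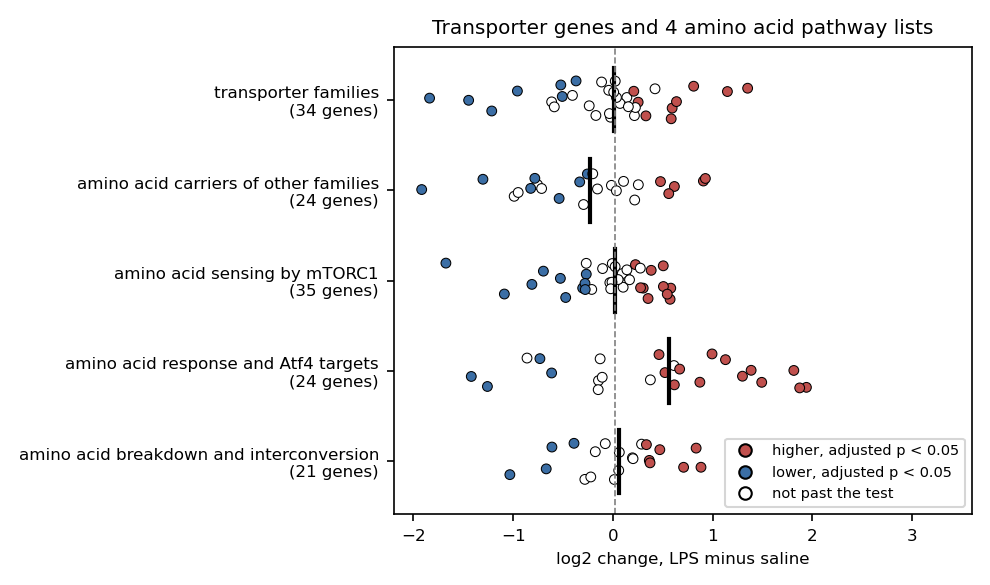
Log2 change between LPS and saline (x axis) of each tested gene in the transporter families (34 genes) and in 4 amino acid pathway lists (24, 35, 24 and 21 genes). Each point is 1 gene, red and blue passed the test, the vertical bar is the list's median, and the dashed line is the median of all genes at 0.02. The list of the amino acid response and Atf4 targets has its median at 0.57, and the transporter families at 0.02.

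Promoter windows from RefSeq, 250 bases before to 50 bases after a start site in GRCm38.p6, were at hand for 31 of the 41 members, among them 7 of the 9 that rose and 5 of the 7 that fell. They were searched on both strands for the element bound by Atf4 with C/EBP factors (TGATGNAA), for the interferon-stimulated response element (ISRE) and for a kappaB site. The Atf4 element occurs in 3.97% of all 32851 windows and in 1219 of all 27025 genes with a window. Among the members it was found in 7.14% of 42 windows and in 2 of 31 genes, Slc1a4 and Slc7a7, both of which rose. Their stretches are shown because these are the only matches, in the direction of the gene with the matches in capitals.
Slc1a4, chr11:20332694-20332757, minus strand: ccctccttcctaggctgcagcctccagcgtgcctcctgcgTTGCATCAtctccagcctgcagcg
Slc7a7, chr14:54417925-54418125, minus strand: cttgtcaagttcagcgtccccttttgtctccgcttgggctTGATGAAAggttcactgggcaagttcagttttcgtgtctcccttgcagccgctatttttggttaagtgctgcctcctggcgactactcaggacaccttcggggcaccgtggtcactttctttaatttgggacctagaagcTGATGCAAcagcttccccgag
In Slc1a4 the match runs on the opposite strand and begins at base -4 from the start site. In Slc7a7 both matches run with the gene and begin at -141 and -1. The response element of interferon occurs in 3.44% of all windows and the kappaB site in 0.411%, and neither was found in a member's window. A match describes letters only, and binding of these factors was not measured.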

How the data were processed

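RNA of CD11b+ brain cells, 4 saline and 4 LPS pools, was measured on 1-colour Agilent arrays; groups were taken from the source labels. The scanner files that the authors deposited give an intensity for each spot, from which Agilent Feature Extraction 12.0.3.1 (named in the submitters' processing notes) had subtracted the background, per the file headers. A value table deposited by the authors is on a log2 scale. Its column medians were -0.07 to 0.08, its values correlated with the scanner values, centred per probe, at 0.999 or more on every array and in the same direction, and it served as an alternative.

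Control spots and flagged outliers were left out, 6 probes had no usable spot on some array, and spots of a probe were averaged. A probe was kept where at least 4 of the 8 arrays had it well above background, and the probe with the highest mean stood for its gene. Main values were log2 processed signal minus the 75th percentile of the array. The test of LPS against saline used limma 3.58.1 (lmFit, then eBayes; R 4.3.3), and p-values were adjusted by Benjamini and Hochberg's method over all genes or all probes, with a threshold of 0.05; the code was tested on simulated data. Plots were made in Python 3.11.15 with matplotlib 3.10.9. Member names are those of the files; other probes took RefSeq names of GRCm38.p6 by accession (35402), symbol (9123) or synonym (25), and 12049 kept the file's name. Probe positions are those of the files, in mm9.

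All 8 arrays share 1 slide and 1 scan time. The number of arrays limits the precision, and p-values measure the spread between pools. Alternatives changed the background correction, scaling, filter, probe choice and model, or left out 1 array. Values on all arrays are given for called members with separate groups that are above background on at least 3 arrays of each group (up to 8 per direction), for those seen in 1 group only, and for Slc3a2 and Slc7a5; other lists name their 2 largest changes per direction. The members and lists were chosen with earlier results of these data known. Protein sequences were not used here.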

Additional observations from a re-analysis of the deposited data

Results flagged for a closer look

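In 4 of the 68 groups of 4 arrays examined, 1 array lay far from the other 3 by Dixon's test, and chance flags about 1 in 20 groups. Slc1a1 was at -3.31 on saline replicate 3, with the other saline arrays between -4.38 and -4.33. Slc38a6 was at 2.70 on the same array, against 2.80 to 2.81 on the others. Slc7a1 was at 3.21 on saline replicate 2, against 3.38 to 3.41. Slc7a4 was at 0.26 on LPS replicate 3, with the other LPS arrays at -0.39 to -0.34.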

How the results depend on the processing

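Of the 16 changed members, 7 (Slc1a5, Slc1a6, Slc38a11, Slc38a3, Slc43a3, Slc7a1 and Slc7a6) passed the test in all 23 alternative settings. Against 16 changed members (9 higher, 7 lower) and 28 changed probes, array brightness (its median signal) as a covariate gave 10 members, 5 of them higher, and 16 probes. Over all genes the count went from 11104 to 7475. Brightness was mostly lower after LPS, so that this covariate is partly confounded with the treatment. The number lower was 4 with scaling to the median, 12 with scaling over probes above background on all arrays and 11 with quantile normalization. Over all genes it was 2619, 7243 and 5598, against 4837. Leaving out 1 array gave 13 to 23 members, 6 to 12 higher and 7 to 11 lower, and 22 to 37 probes. Over all genes it gave 8730 to 13262. Slc3a2 turned to -0.15 after quantile normalization and Slc38a9 to 0.016 with its RefSeq probe. Slc7a5, at -0.02 and never called, was 0.19 with scaling to the median, 0.056 after quantile normalization, 0.017 with the offset of 50, 0.29 with the covariate, and -0.10 to 0.10 without 1 array (0.06 without LPS replicate 1, 0.04 without LPS replicate 2 and 0.10 without saline replicate 3). The causes were not tested. The labels give no replicate numbers; numbers by accession order coincide with the slide column, which 1 saline and 1 LPS array share. With this replicate block 19 members were called: the 16, with Slc38a2, Slc38a4 and Slc43a1 (adjusted p = 0.0138, 0.0132 and 0.038). Of these, Slc38a4 was above background on only 2 LPS arrays. Over all genes 13620 were called with the block. Signal over background limits 7 members, which were not tested.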
